A study of Mus musculus with 12 samples.

Results

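The metallothioneins and the zinc transporters that accompany them were followed in mouse liver through 7 of 19937 measured genes. They were chosen by name, with earlier results of these data known. They were the metallothioneins Mt1 and Mt2, the zinc-sensing regulator Mtf1, the zinc importers Slc39a14 and Slc39a4 of the ZIP family, and the exporters Slc30a1 and Slc30a10 of the ZnT family. All 7 passed the filter on low values, and 17904 genes in all did. RNA came from the livers of 12 male C57Bl/6 mice, with 1 whole-transcript Affymetrix array for each animal and 3 separate animals in each of 4 groups. These were Hdac6 knockout mice (labelled HDAC6 Y/-) given dexamethasone, knockout mice given vehicle, wild-type mice given dexamethasone and wild-type mice given vehicle. Dexamethasone, a synthetic glucocorticoid, was given intraperitoneally at 1 mg/kg over 3 weeks. Hdac6, which encodes a cytoplasmic deacetylase, is X-linked, and the labels describe an animal-wide knockout, with no promoter or Cre that would limit it to hepatocytes.

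Metallothioneins are small cysteine-rich proteins that bind zinc and copper, and liver is a main site of their synthesis. When zinc in the cell is high, the transcription factor MTF1 binds metal response elements (MREs) in the promoters of Mt1, Mt2 and Slc30a1 and raises their transcription. Glucocorticoids are a second, separate inducer of the mouse metallothionein genes, through glucocorticoid response elements upstream of Mt2. ZIP proteins bring zinc into the cytoplasm and ZnT proteins move it out, so that the balance of both families and of the metallothioneins sets free zinc in the hepatocyte.

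Mt1 and Mt2 are neighbours on chromosome 8. The sequence before their annotated starts, with that of Slc30a1, is shown because MTF1 is known to act on these genes. The sequences are from RefSeq (GRCm38.p6). Each is the 250 bases before the annotated start, written 5′ to 3′ on the gene's strand, with matches to the MRE core in capitals. The core was searched on both strands as TGCACNC and TGCGCNC, so that a match on the opposite strand reads GNGTGCA or GNGCGCA.
Mt2, chr8:94172368-94172617, + strand: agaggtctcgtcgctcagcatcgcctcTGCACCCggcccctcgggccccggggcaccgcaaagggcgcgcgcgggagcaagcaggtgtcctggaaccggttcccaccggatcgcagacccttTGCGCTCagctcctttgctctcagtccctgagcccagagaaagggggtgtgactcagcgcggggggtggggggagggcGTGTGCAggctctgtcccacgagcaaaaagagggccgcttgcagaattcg
Mt1, chr8:94178839-94179088, + strand: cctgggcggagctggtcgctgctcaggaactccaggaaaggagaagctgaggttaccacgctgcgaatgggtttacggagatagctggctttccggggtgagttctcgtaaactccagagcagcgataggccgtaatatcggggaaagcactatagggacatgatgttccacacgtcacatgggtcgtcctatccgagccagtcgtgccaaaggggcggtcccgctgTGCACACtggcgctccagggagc
Slc30a1, chr1:191906531-191906780, + strand: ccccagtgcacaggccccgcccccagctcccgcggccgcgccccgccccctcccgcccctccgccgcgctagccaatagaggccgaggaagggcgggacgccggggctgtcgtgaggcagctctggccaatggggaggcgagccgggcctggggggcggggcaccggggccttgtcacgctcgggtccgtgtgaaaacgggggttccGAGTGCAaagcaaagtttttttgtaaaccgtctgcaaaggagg
Mt1 has a further pair of matches just after its start, at chr8:94179091-94179115 on the + strand: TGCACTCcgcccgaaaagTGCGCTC

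Counted over 300 bases, from 250 before the start to 50 after it, Mt2 had 4 MRE core matches, Mt1 had 3, Slc30a10 had 3, Slc30a1 had 2 and Mtf1 had 0. In Slc30a10, 2 of the 3 matches overlap on opposite strands. RefSeq windows were matched for 5 of the 7 genes; none was matched for Slc39a14 or Slc39a4. Among 32851 windows of the same length over the genome, 25.7% held at least 1 such match, 7.11% at least 2, 1.97% at least 3 and 0.517% at least 4. The promoter windows of these genes were also richer in G and C (Mt2 67.7%, Mt1 60.7%, Slc30a1 73.0%, Slc30a10 62.7%) than the median window (52.7%). So was the window of Mtf1 (66.3%), which had 0 matches. The core of a glucocorticoid receptor site, searched as AGAACA on both strands, was found in 1 of the 5 windows, that of Mtf1, and in 19.0% of all windows. Response elements more than 250 bases before the annotated start were not searched. The lack of a match in the Mt1 and Mt2 windows therefore does not show that these genes lack such elements. These letter matches are descriptions of the sequence and not measured binding sites. All positions are relative to the start annotated in RefSeq. Where transcription starts in these livers was not measured, so a match after the annotated start may lie before the start in use. MRE matches beyond the windows were not counted.

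**Figure D1:**
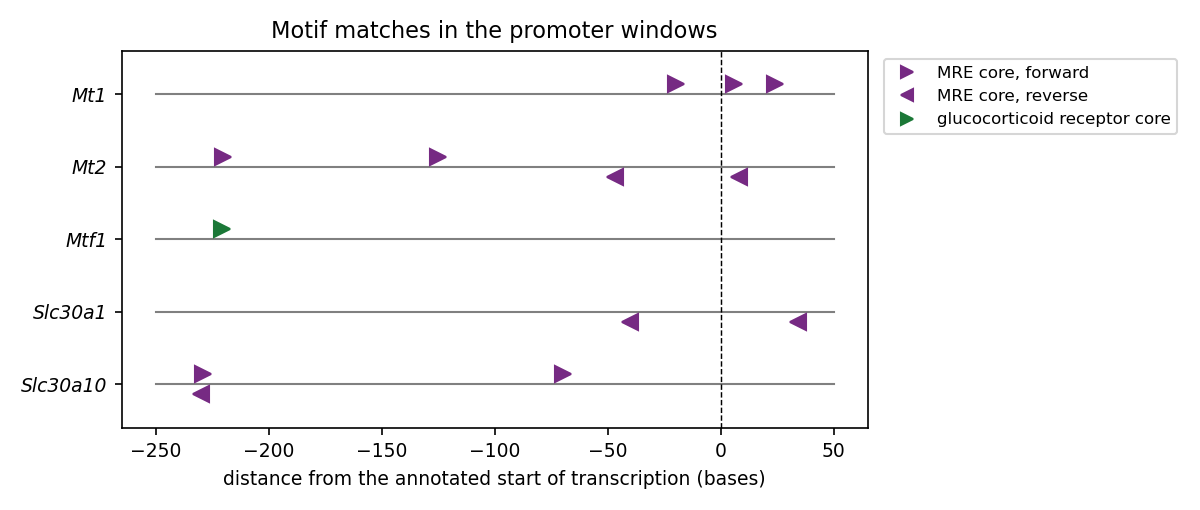
Positions of motif matches in the promoter windows of the 5 genes with a RefSeq window; the x axis is the distance in bases from the annotated start, and triangles point along the strand of the match. Mt2 and Mt1 carry 4 and 3 MRE core matches, and the single glucocorticoid receptor core lies in the Mtf1 window. Sequence outside the windows was not searched.

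The genotype was checked first. Hdac6 averaged 3.75 ± 0.136 under dexamethasone and 4.12 ± 0.255 under vehicle in knockout livers, against 5.99 ± 0.167 and 6.20 ± 0.203 in wild-type livers (log2 array intensity, SD, n = 3 each). It was 4.70-fold lower in the knockout under dexamethasone and 4.22-fold lower under vehicle, as the labels give it. The array medians lay between 3.132 and 3.239, and for arrays the number of animals limits the precision. The arrays of knockout vehicle animal 3, wild-type dexamethasone animal 3 and wild-type vehicle animals 1 and 2 carried transcripts of exocrine pancreas. All 15 measured markers of that tissue were higher in each of these 4 arrays than in any of the other 8, with a mean log2 level of 7.74 to 9.81 against 3.04 to 3.39. The summed signal of 7 hepatocyte markers stayed between 15.37 and 15.49 (log2) in all 12 livers. Calls lost without the 4 arrays, and values of the 7 genes that turned direction or moved by over 1.5 times without them, are given both ways. Without them 1 wild-type vehicle, 2 wild-type dexamethasone, 2 knockout vehicle and 3 knockout dexamethasone arrays were left. Why a call was lost with these fewer arrays was not tested.

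Dexamethasone was followed by one of the strongest increases on the array for both metallothioneins, in both genotypes, by an increase of the importer Slc39a14 and by a decrease of the exporter Slc30a10. Mtf1 did not pass the test. With limma's moderated test and Benjamini-Hochberg adjustment over the 17904 genes, at an adjusted p under 0.05, 5 of the 7 genes changed in knockout livers (3 higher, 2 lower) and 4 changed in wild-type livers (3 higher, 1 lower). Across all genes tested, 8.29% changed in knockout livers (4.38% higher, 3.92% lower) and 11.5% in wild-type livers (4.57% higher, 6.95% lower). The values of dexamethasone and vehicle animals did not overlap for 5 of the 7 genes in knockout livers, where 24.3% of all genes did not overlap, and for 6 of the 7 in wild-type livers, where 27% did not. The median change of the 7 genes was 0.14 in knockout livers and 0.04 in wild-type livers on the log2 scale, against -0.01 and 0.01 over all genes tested. Since the 7 genes were chosen with earlier results of these data known, the shares of all genes are given for reference only. The contrast with them is not a test.

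**Figure D2:**
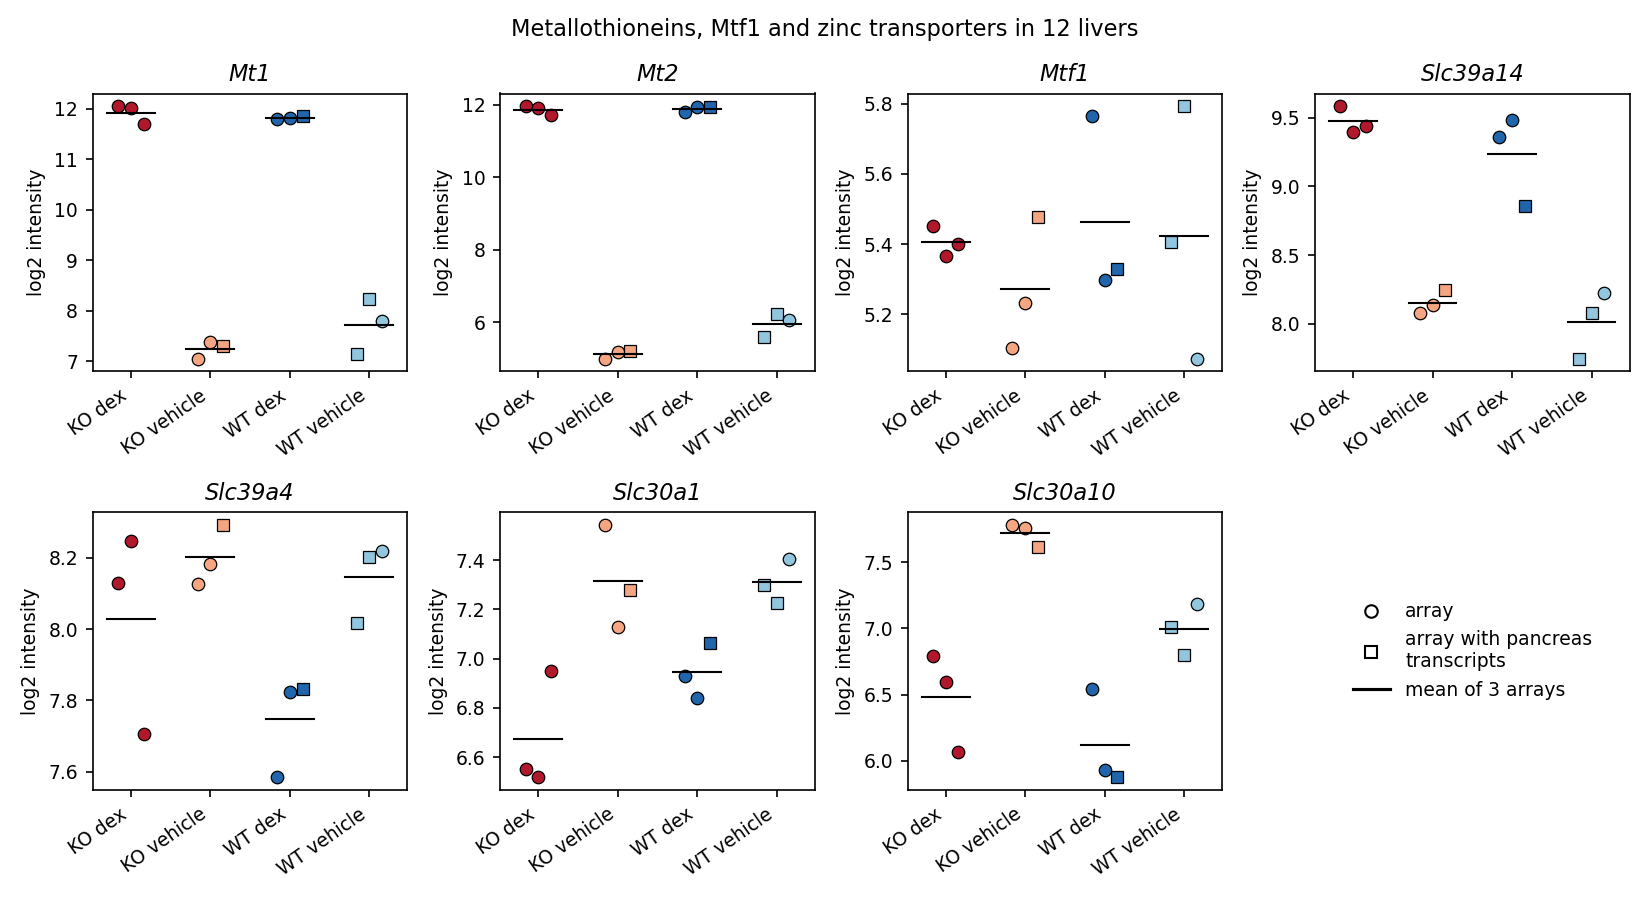
Log2 array intensity of each of the 7 genes in the 12 livers, 1 point per animal, with a bar at the mean of 3; squares mark the 4 arrays with pancreas transcripts. The dexamethasone and vehicle animals are far apart for Mt1 and Mt2 and overlap for Mtf1.

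Mt2, which encodes one of the main liver metallothioneins, had a log2 intensity of 11.96, 11.90 and 11.70 in knockout livers after dexamethasone, against 4.99, 5.17 and 5.20 in knockout livers after vehicle. The wild-type values were 11.79, 11.92 and 11.95 after dexamethasone, against 5.59, 6.23 and 6.05 after vehicle. Every treated animal stood above every vehicle animal by a wide margin, and no value of the treated animals overlapped a vehicle value. The change was 6.73 ± 0.14 (SE; 95% interval 6.43 to 7.04) in knockout livers, or 106-fold, with adjusted p = 8.69e-12 (limma, n = 3 each). In wild-type livers it was 5.93 ± 0.14 (5.62 to 6.23), or 60.9-fold, with adjusted p = 4.56e-11 (limma, n = 3 each). Mt2 had the smallest p of all 17904 genes in both genotypes, and ranked 2nd by size of increase in knockout livers and 5th in wild-type livers. Intervals of changes here are not adjusted for the number of genes.

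Mt1, which encodes the paralogous protein, moved in the same way. Its log2 intensity was 12.05, 12.02 and 11.69 in knockout livers after dexamethasone, against 7.05, 7.39 and 7.31 after vehicle. The wild-type values were 11.80, 11.82 and 11.85 after dexamethasone, against 7.14, 8.24 and 7.80 after vehicle. The 3 treated wild-type animals were almost alike (SD 0.030), while the vehicle wild-type animals were the most spread group (SD 0.554). The change was 4.67 ± 0.21 (SE; 4.22 to 5.12), or 25.5-fold, in knockout livers, with adjusted p = 2.12e-08 (limma, n = 3 each). For wild-type livers the change was 4.10 ± 0.21 (3.65 to 4.55), or 17.1-fold, with adjusted p = 8.64e-08 (limma, n = 3 each). Mt1 ranked 10th by size of increase in both genotypes.

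After dexamethasone both genes came close to the top of the array's range. The gap to the brightest value of the same array was 1.43 to 1.72 (log2) for Mt1 and 1.52 to 1.71 for Mt2 in knockout livers, and 1.62 to 1.63 and 1.51 to 1.64 in wild-type livers. Under vehicle, the gap was 6.09 to 6.44 for Mt1 and 8.24 to 8.50 for Mt2 in knockout livers, and 5.24 to 6.32 and 7.24 to 7.87 in wild-type livers. Whether signal near the top of the range flattens was not tested.

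Mtf1, the regulator that reads zinc for these promoters, was near the middle of the expressed range and did not separate by treatment. It was 5.45, 5.37 and 5.40 in knockout livers after dexamethasone, against 5.11, 5.23 and 5.48 after vehicle. Wild-type livers had 5.76, 5.30 and 5.33 after dexamethasone, against 5.41, 5.79 and 5.07 after vehicle. The groups overlapped in both genotypes. The difference was 0.14 ± 0.17 (SE; -0.23 to 0.50) in knockout livers and 0.04 ± 0.17 (-0.33 to 0.41) in wild-type livers, with adjusted p = 0.791 and adjusted p = 0.930 (limma, n = 3 each). Within the vehicle wild-type group, the arrays with pancreas transcripts averaged 0.53 above the other array. In the vehicle knockout group the array with them (5.48) was 0.31 above the mean of the others, and in the treated wild-type group 0.20 below. Among the arrays without pancreas transcripts, the treated values lay above the vehicle values in both genotypes. They were 5.37 to 5.45 against 5.11 and 5.23 in knockout livers, and 5.30 and 5.76 against 5.07 in wild-type livers. Without the 4 such arrays the Mtf1 difference was 0.24 in knockout livers and 0.46 in wild-type livers. That wild-type value rests on 1 vehicle array, animal 3, which had the lowest vehicle value, 5.07. Leaving out only that animal gave -0.14 in wild-type livers. The wild-type estimate thus depends on which vehicle arrays enter, and the part of the pancreas transcripts was not tested. The array measures the transcript, not the activity of the protein.

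Of the importers, Slc39a14 rose. It encodes ZIP14, a transporter of zinc, manganese and non-transferrin iron that is abundant in liver and rises in inflammation. It was 9.58, 9.40 and 9.44 in knockout livers after dexamethasone, against 8.08, 8.13 and 8.24 after vehicle, and in wild-type livers 9.36, 9.49 and 8.86 after dexamethasone, against 7.74, 8.07 and 8.22 after vehicle. No treated value overlapped a vehicle value. The increase was 1.32 ± 0.16 (SE; 0.99 to 1.66), or 2.50-fold, in knockout livers, with adjusted p = 1.21e-04 (limma, n = 3 each). In wild-type livers it was 1.22 ± 0.16 (0.89 to 1.56), or 2.33-fold, with adjusted p = 2.11e-04 (limma, n = 3 each). The lowest treated wild-type value, 8.86, came from the array with pancreas transcripts in that group, and without the 4 such arrays the increase was 1.37 in knockout livers and 1.20 in wild-type livers, past the threshold in both.

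Slc39a4 encodes ZIP4, the importer best known for zinc uptake in the intestine. It was 8.13, 8.25 and 7.70 in knockout livers after dexamethasone, against 8.13, 8.18 and 8.29 after vehicle, which overlap. In wild-type livers it was 7.58, 7.82 and 7.83 after dexamethasone, against 8.02, 8.20 and 8.22 after vehicle, which do not. The difference was -0.17 ± 0.13 (SE; -0.46 to 0.11) in knockout livers, with adjusted p = 0.585, and -0.40 ± 0.13 (-0.68 to -0.11) in wild-type livers, with adjusted p = 0.0715 (limma, n = 3 each). The wild-type difference passed the threshold when each array was centred on its median (-0.45, adjusted p = 0.0440) and when knockout dexamethasone animal 3, the lowest treated knockout value, was left out of the shared fit (-0.40, adjusted p = 0.0212).

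Both exporters were lower after dexamethasone in knockout livers. Slc30a1 encodes ZnT1, which carries zinc out across the plasma membrane and is itself a textbook target of MTF1. It was 6.55, 6.52 and 6.95 in knockout livers after dexamethasone, against 7.54, 7.13 and 7.28 after vehicle, and in wild-type livers 6.93, 6.84 and 7.06 after dexamethasone, against 7.30, 7.23 and 7.41 after vehicle. The groups did not overlap in either genotype, but the difference passed the threshold only in knockout livers. There it was -0.64 ± 0.13 (SE; -0.93 to -0.36), or 1.56-fold lower, with adjusted p = 7.80e-03, and in wild-type livers it was -0.37 ± 0.13 (-0.65 to -0.08), with adjusted p = 0.103 (limma, n = 3 each). The knockout difference was -0.66 and was no longer called when the 4 arrays with pancreas transcripts were left out, which left 2 knockout vehicle arrays. Whether the genotypes differ in this decrease is a separate test, given with the interaction. Its direction was opposite to that of Mt1 and Mt2.

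Slc30a10 encodes ZnT10, which in humans is known chiefly as a manganese exporter of liver. It was 6.79, 6.60 and 6.06 in knockout livers after dexamethasone, against 7.78, 7.76 and 7.61 after vehicle. In wild-type livers it was 6.54, 5.93 and 5.88 after dexamethasone, against 7.01, 6.80 and 7.18 after vehicle. Treated and vehicle values did not overlap in either genotype. It fell by 1.23 ± 0.20 (SE; interval -1.66 to -0.81) in knockout livers, 2.35-fold lower, with adjusted p = 1.21e-03, and by 0.88 ± 0.20 (-1.30 to -0.46) in wild-type livers, 1.84-fold lower, with adjusted p = 9.96e-03 (limma, n = 3 each). Without the 4 arrays with pancreas transcripts, the knockout change was -1.29 and was still called. The wild-type change was -0.95 and was no longer called, with 1 vehicle array left.

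**Figure D3:**
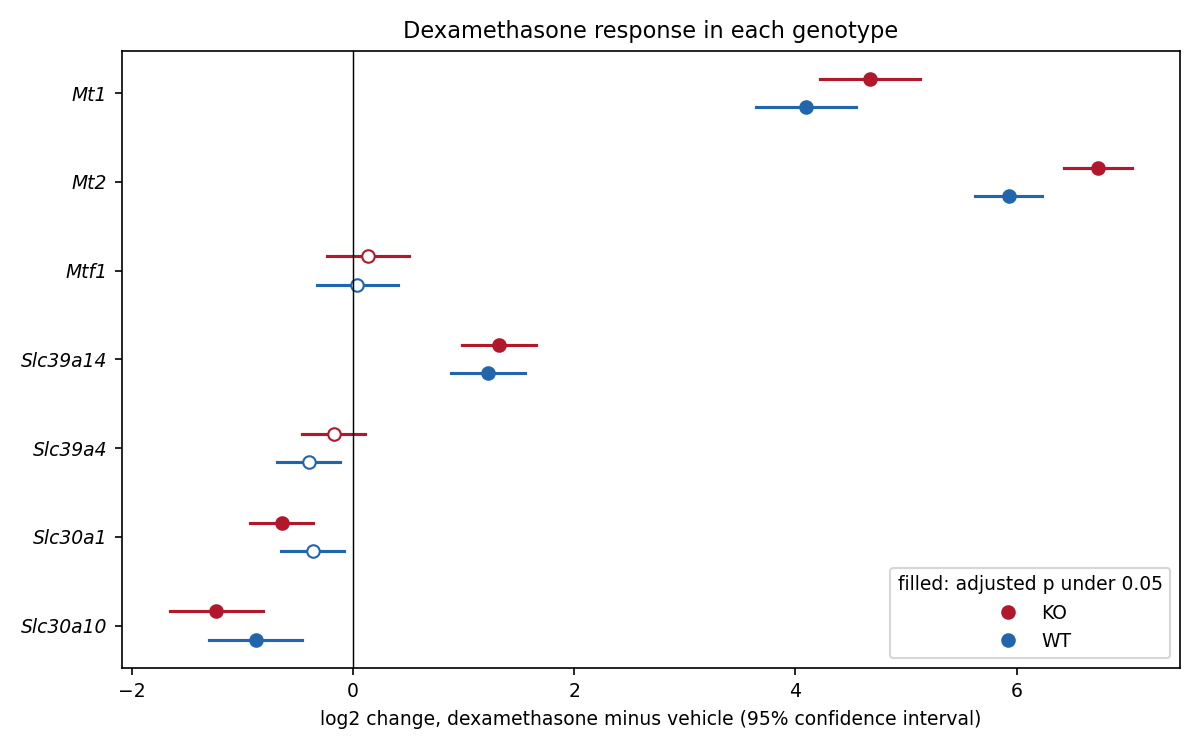
Change of each of the 7 genes after dexamethasone against vehicle, on the log2 scale, with its 95% interval, knockout above wild type; filled points have an adjusted p under 0.05. Mt1 and Mt2 stand at 4.10 to 6.73, Slc39a14 at 1.22 to 1.32 and Slc30a10 at -1.23 and -0.88, and the 2 points of Mtf1 lie at 0.14 and 0.04.

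Some cell type markers moved with dexamethasone too. Over all 17904 genes, 3.92% were lower and 4.38% higher in knockout livers, and 6.95% and 4.57% in wild-type livers. An unadjusted p under 0.05 was held by 3311 of these genes in knockout and 4233 in wild-type livers (limma). Of 8 Kupffer cell markers, 0 were lower in knockout livers and 6 in wild-type livers by the same test (limma), with 0 and 7 at an unadjusted p under 0.05, and of 8 endothelial markers, 3 were lower and 1 higher in knockout livers and 5 lower and 1 higher in wild-type livers. Of 8 stellate cell markers, 1 was lower in knockout livers (Pdgfrb) and 2 in wild-type livers (Pdgfrb and Col3a1), with 2 and 4 at an unadjusted p under 0.05, and of 5 adipocyte markers 1 was higher in knockout livers (Fabp4) and 0 in wild-type livers (limma), with 2 and 1 at an unadjusted p under 0.05. No cholangiocyte, endocrine pancreas, erythroid or neutrophil marker passed in either genotype. The summed log2 signal of the Kupffer markers was 9.67 to 10.43 in knockout livers after dexamethasone and 9.93 to 10.35 after vehicle, and 8.91 to 9.41 in wild-type livers after dexamethasone and 10.02 to 10.83 after vehicle. For the endothelial markers the sums were 10.34 to 10.55 and 10.60 to 10.82 in knockout livers, and 10.23 to 10.37 and 10.59 to 10.92 in wild-type livers, dexamethasone before vehicle. The stellate sums were 10.42 to 10.67 and 10.40 to 10.67 in knockout livers, and 10.37 to 10.67 and 10.36 to 10.80 in wild-type livers, in the same order. Of the 7 hepatocyte markers 0 passed in either genotype by limma, and 0 at an unadjusted p under 0.05. All 15 exocrine pancreas markers were lower on average after dexamethasone, with a median change of -1.61 in knockout and -2.87 in wild-type livers, and 0 passed the test (0 at an unadjusted p under 0.05). In bulk liver, fewer cells of a type and less RNA per cell cannot be told apart, and the part of these markers in the changes above was not tested.

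Against wild type, Mt2 was the single gene of the 7 that passed the test in knockout livers under vehicle, and it was lower there. Of all genes tested, 0.101% passed in this comparison (0.0391% higher, 0.0614% lower). The group means were 5.12 ± 0.116 in the knockout and 5.96 ± 0.328 in wild type (SD, n = 3 each), and the 3 knockout values, 4.99 to 5.20, lay below the 3 wild-type values, 5.59 to 6.23. The difference was -0.84 ± 0.14 (SE; -1.14 to -0.53), or 1.79-fold lower, with adjusted p = 0.0479 by limma, close to the threshold. By p, Mt2 was the last of the 18 genes called here. Leaving out any 1 of the 12 arrays gave -1.02 to -0.70, and in 11 of these 12 fits the adjusted p was no longer under 0.05. The exception was the fit without wild-type vehicle animal 1 (-1.02, adjusted p = 2.97e-03), and the weakest was the fit without wild-type vehicle animal 2 (-0.70, adjusted p = 0.220). The direction was the same in all 12. Wild-type vehicle animals 1 and 2 and knockout vehicle animal 3 are arrays with pancreas transcripts. Without the 4 such arrays the difference was -0.97 and was no longer called, with 1 wild-type and 2 knockout vehicle arrays left. The pancreas markers had a median knockout minus wild-type difference of -2.70 under vehicle, with 0 of 15 past the test by limma. The knockout animals without pancreas transcripts had Mt2 at 4.99 and 5.17, against 6.05 in the one such wild-type animal.

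Mt1 lay in the same direction under vehicle but its groups overlapped: it averaged 7.25 ± 0.176 in knockout livers and 7.73 ± 0.554 in wild-type livers (SD, n = 3 each). The difference was -0.48 ± 0.21 (SE; -0.93 to -0.03), with adjusted p = 0.677 by limma. It was -0.77 without wild-type vehicle animal 1 and -0.22 without wild-type vehicle animal 2, the ends of the range over the 12 fits that leave out 1 array, and 0 of these fits passed. Slc30a10 did not overlap between genotypes under vehicle. It averaged 7.72 ± 0.093 in knockout livers and 6.998 ± 0.193 in wild-type livers, a difference of 0.72 ± 0.20 (SE; 0.30 to 1.14), with adjusted p = 0.429 by limma. Genes with no overlap in this comparison were 2 of the 7, and 11.8% of all genes tested. At an unadjusted p under 0.05 were 3 of the 7 (Mt1, Mt2 and Slc30a10) by limma, against 1288 of all 17904 genes. The other 4 genes differed between genotypes by -0.15 (Mtf1), 0.14 (Slc39a14), 0.06 (Slc39a4) and 0.01 (Slc30a1) under vehicle. All of these signs turned when the 4 arrays with pancreas transcripts were left out, to 0.09 (Mtf1), -0.12 (Slc39a14), -0.06 (Slc39a4) and -0.07 (Slc30a1), so none of them has a settled direction.

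Between genotypes after dexamethasone, 0 of the 7 genes passed limma's test, against 0.0279% of all genes. At an unadjusted p under 0.05 were 0 of the 7, against 1566 of all 17904 genes. None had groups that did not overlap, against 14% of all genes. Mt2 averaged 11.85 ± 0.133 in knockout livers and 11.89 ± 0.085 in wild-type livers, a difference of -0.03 ± 0.14 (SE; -0.34 to 0.27), with adjusted p = 0.967. For Mt1 the means were 11.92 ± 0.197 and 11.82 ± 0.030, and the difference was 0.10 ± 0.21 (-0.35 to 0.55), with adjusted p = 0.926 (limma, n = 3 each). Slc30a10 averaged 6.48 ± 0.376 in knockout livers and 6.12 ± 0.372 in wild-type livers, a difference of 0.37 ± 0.20 (-0.06 to 0.79), with adjusted p = 0.633. Slc39a14 differed by 0.24 (-0.10 to 0.57), Slc30a1 by -0.27 (-0.56 to 0.01), Slc39a4 by 0.28 (-0.00 to 0.57) and Mtf1 by -0.06. Without the arrays with pancreas transcripts, Mt2 differed by -0.00, Slc39a14 by 0.05 and Mtf1 by -0.12.

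**Figure D4:**
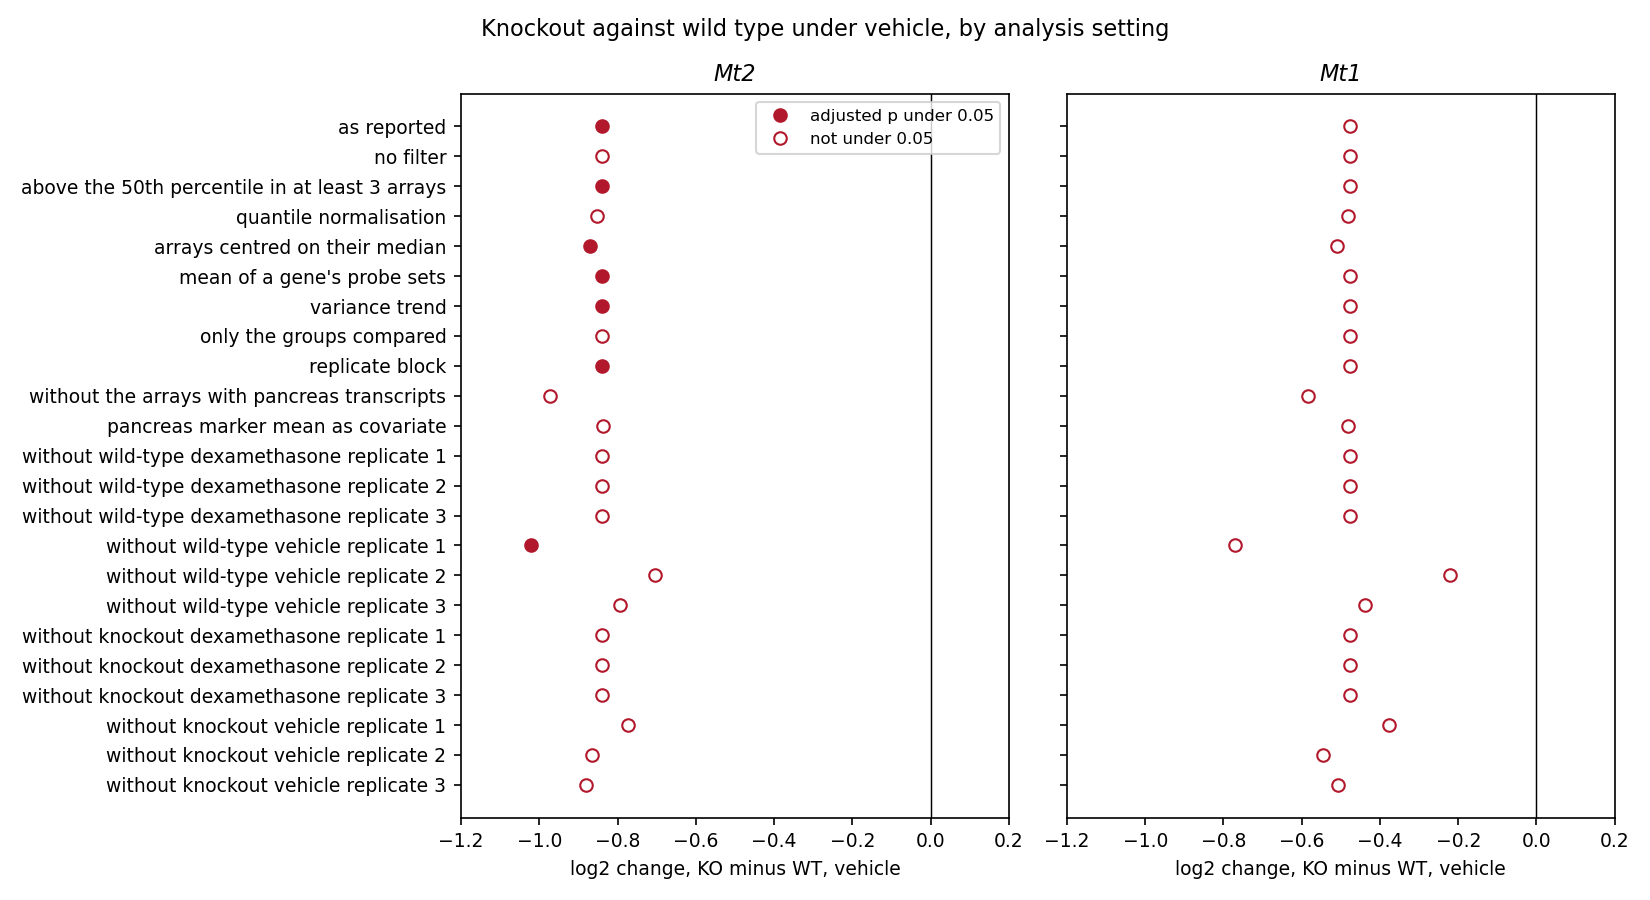
Knockout minus wild type under vehicle for Mt2 and Mt1 on the log2 scale, under the setting as reported, 10 other settings and the 12 fits that leave out 1 array; filled points have an adjusted p under 0.05. All points are below 0, from -1.02 to -0.70 over the array-removal fits of Mt2, and Mt1 is never filled.

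The difference between the genotypes in the response itself was tested as an interaction, the knockout change minus the wild-type change. No gene passed an adjusted p under 0.05 in limma (0% of 17904 genes), while 1109 genes, 6.19%, had an unadjusted p under 0.05, and of the 7 genes 0 passed and 1, Mt2, had an unadjusted p under 0.05. The interaction of Mt2 was 0.81 ± 0.20 (SE; 0.38 to 1.24), with unadjusted p = 0.0014, adjusted p = 0.530 and rank 46 by p. Mt1 had 0.58 ± 0.30 (-0.06 to 1.21), with unadjusted p = 0.0731 and adjusted p = 0.817. The estimate of both metallothioneins was larger in knockout livers, by an amount that did not pass the adjusted test. In both, the treated levels of the genotypes differed by 0.10 or less and the vehicle levels by -0.84 (Mt2) and -0.48 (Mt1). The treated signal was near the top of the array's range, and whether it flattens there was not tested. Over the 12 fits that leave out 1 array, the Mt2 interaction ranged over 0.67 to 0.99, and 0 of these fits passed. Of the other 5 genes, Slc30a10 had -0.35 ± 0.28 (-0.95 to 0.24) and Slc30a1 -0.28 ± 0.19 (-0.68 to 0.13), with adjusted p = 0.891 and adjusted p = 0.859. Slc39a4 had 0.23 ± 0.19 (-0.18 to 0.63), Slc39a14 0.10 ± 0.22 (-0.37 to 0.58) and Mtf1 0.10 ± 0.24 (-0.42 to 0.62). Without the arrays with pancreas transcripts, the interaction was -0.14 for Slc30a1, 0.39 for Slc39a4, 0.17 for Slc39a14 and -0.22 for Mtf1.

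The order of the 4 groups differed between the genes. In Mt1 and Mt2 the dexamethasone groups of both genotypes were highest and could not be ordered against each other, and the vehicle groups were low, with the knockout mean below the wild-type mean. In Slc39a14 the order of treatment was the same and neither pair of genotypes could be ordered. In Slc30a10 the dexamethasone means were lowest, at 6.48 in knockout and 6.12 in wild type, and the vehicle means highest, at 7.72 and 6.998. In Slc30a1 the dexamethasone means were 6.67 in knockout and 6.95 in wild type, below the vehicle means of 7.32 and 7.31, and the genotypes could not be ordered. Slc39a4 averaged 8.03 ± 0.286 in knockout and 7.75 ± 0.141 in wild-type livers after dexamethasone, and 8.20 ± 0.084 and 8.15 ± 0.111 after vehicle (SD, n = 3 each), with the treated wild-type group the lowest. Mtf1 had 4 means between 5.27 and 5.46, which cannot be ordered.

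Of the other members of the families few passed limma's test, 0 in knockout livers and 1 in wild-type livers, where 8.29% and 11.5% of all genes did. These counts over so few genes are not read as different from those shares. An unadjusted p under 0.05 was held by 3311 of all 17904 genes in knockout livers and 4233 in wild-type livers. Neither Mt3 nor Mt4, metallothioneins best known from brain and from stratified epithelium, changed by the test in either genotype. Mt4 levels were 2.66 to 3.19 and Mt3 levels 3.61 to 4.08 over the 12 livers, near the low end of the array, whose 20th percentile was 2.172 to 2.230. Of 12 other ZIP importers, 0 changed in knockout livers and 1, lower, in wild-type livers, with a median change of -0.01 in each; by unadjusted p under 0.05 these counts were 2 and 1. Of 8 other ZnT exporters, 0 changed in either genotype by limma (0 in knockout and 2 in wild-type livers at an unadjusted p under 0.05), with median changes of -0.00 in knockout and 0.00 in wild-type livers. Over all 17904 genes, 1288 had an unadjusted p under 0.05 in knockout against wild type under vehicle. Under dexamethasone 1566 did, and in the interaction 1109 did. The genotype comparisons and the interaction called 0 of the other family members by limma. At an unadjusted p under 0.05 they held 1 importer under vehicle, 2 importers and 1 exporter under dexamethasone, and Mt3 in the interaction. Among them, the smallest p after the called gene belonged to Slc30a9, at 0.28 ± 0.10 (SE) in wild-type livers, with adjusted p = 0.101, and to Slc30a8, at 0.26 ± 0.11, with adjusted p = 0.179, whose levels of 2.01 to 2.53 were close to the 20th percentile. Slc39a6, another plasma membrane importer, stood at 0.35 ± 0.15 in knockout livers, with adjusted p = 0.233, and Mt3 at -0.25 ± 0.11, with adjusted p = 0.208.

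The called gene was Slc39a8, which encodes ZIP8, the closest relative of ZIP14 in the family and, like it, an importer of zinc and manganese. It was 7.07, 6.77 and 6.70 in knockout livers after dexamethasone, against 7.25, 7.17 and 7.15 after vehicle, and in wild-type livers 6.62, 6.50 and 6.39, against 7.19, 6.93 and 7.22. Its direction was opposite to that of Slc39a14, and treated and vehicle values did not overlap in either genotype. It was 1.53-fold lower in wild-type livers, -0.61 ± 0.12 (SE; -0.86 to -0.36), with adjusted p = 3.66e-03. In knockout livers the difference was -0.35 ± 0.12 (-0.60 to -0.10), with adjusted p = 0.0921 (limma, n = 3 each). The interaction was 0.26 ± 0.16 (-0.09 to 0.62), with adjusted p = 0.852. Without the 4 arrays with pancreas transcripts, the wild-type difference was -0.66 and was no longer called, with 1 vehicle array left. Without knockout dexamethasone animal 1 the knockout difference was -0.46, with adjusted p = 0.0272 by limma.

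**Figure D5:**
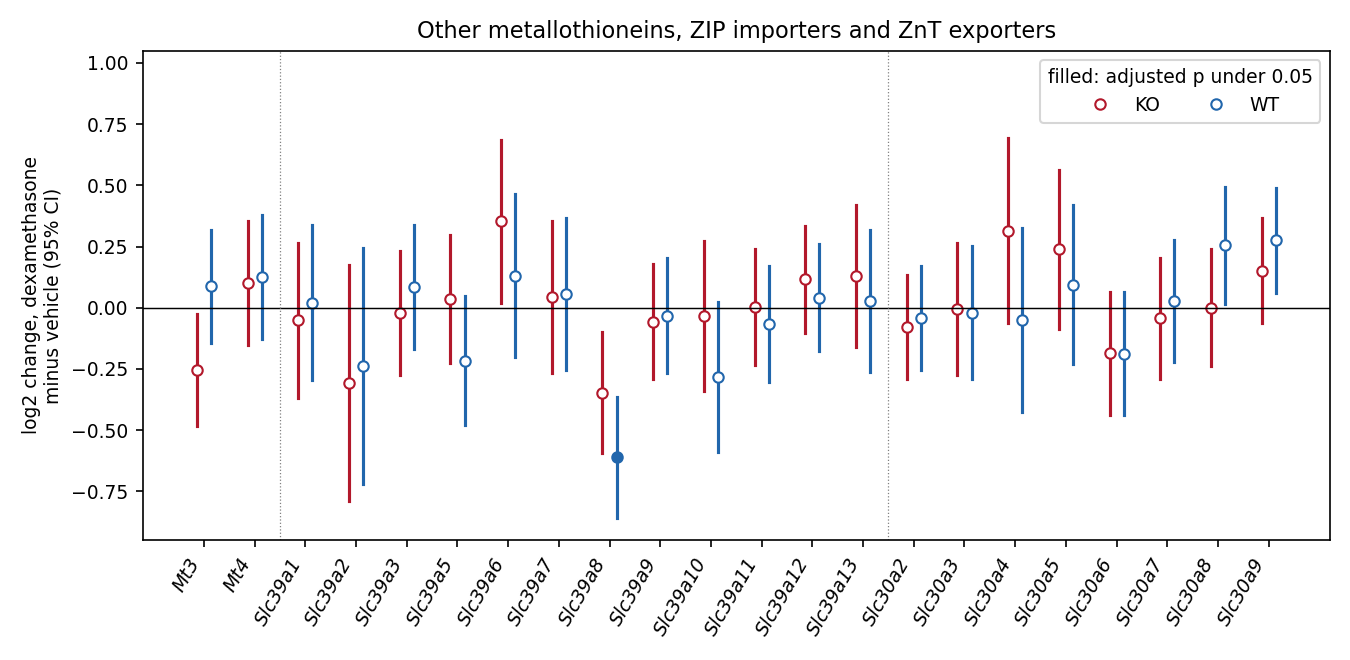
Dexamethasone against vehicle, on the log2 scale with 95% intervals, for the other metallothioneins (left), other ZIP importers (middle) and other ZnT exporters (right), knockout left of wild type for each gene; filled points have an adjusted p under 0.05. Slc39a8 in wild-type livers, at -0.61, is the filled point.

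Other genes that MTF1 or the inducing signals are known to use were counted as well. Over all 17904 genes, 8.29% passed in knockout and 11.5% in wild-type livers after dexamethasone, and 3311 and 4233 had an unadjusted p under 0.05. Of 5 further MTF1 targets (Gclc, Ndrg1, Csrp1, Selenoh and Hamp), 0 changed in either genotype by limma (0 in knockout and 1 in wild-type livers at an unadjusted p under 0.05), with median changes of -0.10 in knockout and -0.02 in wild-type livers. Csrp1 had the smallest p, at -0.49 ± 0.17 (SE) in wild-type livers, with adjusted p = 0.0925, and it ranged over -0.72 to -0.36 in the 12 fits that leave out 1 array, with 1 past the threshold (without wild-type vehicle animal 3, -0.72, adjusted p = 6.32e-03). Without the 4 arrays with pancreas transcripts it was 0.02, with adjusted p = 0.986, so no direction is given for it. Of 5 measured genes for signals that induce metallothioneins, 1 rose and 1 fell in each genotype. Over all genes tested, 4.38% rose and 3.92% fell in knockout livers, and 4.57% and 6.95% in wild-type livers.

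Il6ra, the receptor chain for interleukin-6, was the one that rose. It was 8.79, 8.83 and 8.63 in knockout livers after dexamethasone, against 7.34, 7.03 and 6.99 after vehicle, and in wild-type livers 8.48, 8.66 and 8.77, against 6.93, 7.58 and 7.50. All treated values lay above all vehicle values. The change was 1.63 ± 0.16 (SE), or 3.10-fold, in knockout livers, with adjusted p = 2.22e-05, and 1.30 ± 0.16, or 2.47-fold, in wild-type livers, with adjusted p = 1.44e-04 (limma, n = 3 each). Nfe2l2, the regulator of the oxidative stress response, was the one that fell, by 0.63 ± 0.11 in knockout livers and 0.65 ± 0.11 in wild-type livers, 1.54-fold and 1.57-fold lower, with adjusted p = 2.31e-03 and adjusted p = 1.60e-03. Nr3c1, the glucocorticoid receptor itself, stood at -0.35 ± 0.15 in knockout and -0.19 ± 0.15 in wild-type livers and did not pass (adjusted p = 0.206 and adjusted p = 0.484). Neither did Stat3 (0.21 and -0.32) or Il6st (-0.20 and -0.28), which carry the interleukin-6 signal on.

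Finally, the genes whose pattern over the 12 arrays was most like each of the 7 were listed by Pearson correlation. These are descriptions over 12 arrays that share 2 treatments, so that any strong responder to dexamethasone correlates with Mt1 and Mt2, which correlate with each other at 0.997. The closest to Mt1 were Fkbp5 (0.991), Pptc7 (0.989) and Kdm5c (0.988), of which Fkbp5, a co-chaperone of steroid receptors, is a standard glucocorticoid-induced gene. The closest to Mt2 were Pptc7 (0.994), Lpin1 (0.992) and Tbc1d8 (0.991). Slc39a14 was closest to Chd7 (0.987), Cldn14 (0.971) and Cdc73 (0.967). For Slc30a10 these were Spon2 (0.963), Dyrk2 (0.962) and Zfyve26 (0.954), for Slc30a1 Klhl13 (0.936), Irs1 (0.927) and Rufy3 (0.921), and for Slc39a4 Eef1akmt1 (0.952), Gbp7 (0.915) and Tmbim1 (0.912). Mtf1, which did not pass the dexamethasone test in either genotype, reached no more than 0.864 (Olfr1395 and Higd2a) and 0.859 (Ebna1bp2).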

How the data were processed

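The deposited table holds log2 values, 1 column per array and 34760 probe sets. Per the submitters' processing notes, affy under R 2.10.0 was used to make these values; background correction, normalisation and summarisation are not given in the sources used here. Sorted values of the 12 arrays deviated from their mean by at most 0.215, so the deposited values are close to a common distribution.

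Each gene was taken from the highest-mean probe set that carries its symbol alone (each of the 7 genes had 1), and was kept if above its array's 20th percentile in at least 3 arrays, which left 17904 genes. RefSeq changed 0 symbols. limma 3.58.1 (R 4.3.3) fitted a mean per group over the 12 arrays, with 8 residual and 5.07 prior degrees of freedom. The 5 comparisons were adjusted by Benjamini-Hochberg over all genes, with a threshold of 0.05, after the fit had been tested on simulated data. Errors of changes are SE and errors of levels SD. The animals are separate per the labels. The promoter search used Python 3.11.15 and pandas 2.3.3, and figures matplotlib 3.10.9.

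The 7 genes and the gene lists were chosen with earlier results of these data known. Named outside the 7 were Hdac6, genes of the zinc, copper and signal lists that passed or had the smallest p (up to 4 a list), and the 3 genes closest to each of the 7 by correlation. Alternatives were the filter, the normalisation, the probe set rule, a variance trend, the groups in the fit, the replicate number, the arrays with pancreas transcripts (left out, where their marker mean exceeded the median array's by more than 2, or as a covariate) and leaving out each array.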

Additional observations from a re-analysis of the deposited data

How the results depend on the processing

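No change of the 7 genes or the other named genes recomputed that passed the test as reported turned direction under the settings tried. Differences that had not passed turned as follows. Without the arrays with pancreas transcripts, knockout against wild type under vehicle turned to 0.095 for Mtf1, -0.12 for Slc39a14, -0.063 for Slc39a4 and -0.070 for Slc30a1, the Mtf1 interaction to -0.22 and Csrp1 in wild-type livers to 0.020. With arrays centred on their median, Mtf1 after dexamethasone in wild-type livers turned to -0.013, Slc30a1 under vehicle to -0.026 and Mt2 between genotypes under dexamethasone to 0.0076. With the pancreas marker mean as a covariate, Slc30a1 under vehicle turned to -0.0080 and Mtf1 between genotypes under dexamethasone to 0.011. Over the fits without 1 array, Mtf1 ranged over -0.14 to 0.22 after dexamethasone in wild-type livers, -0.33 to 0.031 between genotypes under vehicle, -0.14 to 0.094 under dexamethasone and -0.088 to 0.27 in the interaction; Slc39a4 and Slc30a1 under vehicle ranged over -0.0090 to 0.092 and -0.11 to 0.10, Mt2 under dexamethasone over -0.085 to 0.042, and the Slc39a14 interaction over -0.088 to 0.24. The cause was not tested. The dexamethasone calls of Mt1, Mt2 and Slc39a14 held in both genotypes in all 12 fits that leave out 1 array and under all 10 other settings. Over the fits without 1 array, Mt2 ranged over 6.67 to 6.81 in knockout and 5.75 to 6.06 in wild-type livers, Mt1 over 4.57 to 4.78 and 3.80 to 4.35, and Slc39a14 over 1.27 to 1.37 and 1.09 to 1.41. The calls of Slc30a10 held in all 12 of these fits in both genotypes (-1.39 to -1.02 in knockout, -1.10 to -0.76 in wild-type livers), and that of Slc30a1 in knockout livers in all 12 (-0.78 to -0.53); the calls that were lost without the arrays with pancreas transcripts stand beside their results. Under the other settings, Mt2 in the knockout against wild type under vehicle ranged over -0.97 to -0.84 and passed in 5 of 10 (adjusted p 0.0295 to 0.255). The count of the 7 genes called there was 1 as reported and 0 with no filter, with quantile normalisation, with only the groups compared, without the arrays with pancreas transcripts and with the pancreas marker mean as a covariate.

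Counts over all genes moved more. Knockout against wild type under vehicle gave 18 genes, and 9 with only the groups compared, 5 without the pancreas arrays and 7 with the covariate. The same comparison under dexamethasone gave 5 genes (Hdac6, Saa2, Mdfic, Gdap10 and Acot1, named after their values were seen), and 3 with no filter, a variance trend, only the groups compared or the replicate block, 2 with the covariate and 1, Hdac6, without the pancreas arrays; centring on the median split its 5 calls into 3 higher and 2 lower, against 2 higher and 3 lower as reported. Dexamethasone in wild type gave 2064 genes, and 559 without the pancreas arrays, where fewer arrays entered the fit. The interaction gave 0 genes, and 1 without the pancreas arrays (Ciart, named after its value was seen). Leaving out 1 array gave 993 to 1603 genes and 5 to 5 of the 7 for dexamethasone in knockout livers, 1417 to 2165 and 4 to 5 in wild-type livers, 5 to 28 and 0 to 1 for the genotypes under vehicle, 1 to 37 and 0 to 0 under dexamethasone, and 0 to 3 and 0 to 0 for the interaction. The extremes came without wild-type vehicle animals 1 (28) and 2 (5), and without knockout dexamethasone animals 2 (1) and 3 (37).

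Deviations from the group means gave no sign that replicate numbers pair the samples. With 3 arrays a group, they cannot exclude such pairing. Of 18 same-numbered pairs across groups, 3 had deviations that correlated over 0.1 (-0.54 to 0.36), and of 36 differently numbered pairs 11 did (-0.35 to 0.40). With the replicate block, dexamethasone gave 1440 genes in knockout and 2018 in wild-type livers, the genotypes 24 under vehicle and 3 under dexamethasone, the interaction 0, and the calls of the 7 genes stayed at 5, 4, 1, 0 and 0 by count.

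With 3 animals a group, small differences could not be resolved, and some well above the median residual SD (0.143, log2) also missed the threshold. An example is Slc30a10 between genotypes under vehicle, at 0.72. A gene that missed the threshold is not shown to be unchanged. Signal of the metallothioneins after dexamethasone was near the top of the array.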

Other observations

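Metallothioneins also bind copper, and 10 genes of copper handling were counted. In each genotype, 1 of the 10 was lower after dexamethasone and 0 were higher, where 3.92% of all genes were lower in knockout and 6.95% in wild-type livers, so that 1 of 10 is near that share. The list had a median change of -0.12 in knockout and 0.02 in wild-type livers. The gene was Atp7b, the copper pump of hepatocytes that loads ceruloplasmin and exports copper to bile. It was 6.30, 6.29 and 5.81 in knockout livers after dexamethasone, against 6.80, 6.60 and 6.74 after vehicle, and in wild-type livers 6.00, 6.06 and 5.96 after dexamethasone, against 6.68, 6.76 and 6.67 after vehicle. Treated and vehicle values did not overlap in either genotype. It was 1.49-fold lower in knockout livers (-0.58 ± 0.12 SE, adjusted p = 8.89e-03) and 1.61-fold lower in wild-type livers (-0.69 ± 0.12, adjusted p = 2.28e-03) by limma. Without the 4 arrays with pancreas transcripts, the values were -0.56 and -0.63, with 2 knockout and 1 wild-type vehicle arrays left, and neither was called any longer. Atp7a, the related pump, stood at 0.59 ± 0.18 in knockout livers, with adjusted p = 0.0676, and ranged over 0.37 (without knockout dexamethasone animal 1, adjusted p = 0.224) to 0.78 (without knockout dexamethasone animal 3, adjusted p = 0.0181) in the 12 fits that leave out 1 array, of which 1 passed. Slc31a2, a relative of the copper importer CTR1, stood at -0.44 ± 0.16 in wild-type livers, with adjusted p = 0.0997, and ranged over -0.58 (without wild-type vehicle animal 3, adjusted p = 0.0452) to -0.25 (without wild-type vehicle animal 1, adjusted p = 0.343) in these fits, of which 1 passed. Without the 4 arrays with pancreas transcripts it was -0.14, with adjusted p = 0.814.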
